A study of Mus musculus with 9 samples.

Results

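A set of 9 genes of the retinoic acid pathway was followed across dermal cells of newborn mice that had been sorted by their surface level of CD49f, the integrin alpha 6 chain that binds laminin. The members were Aldh1a1, Aldh1a2 and Aldh1a3 for synthesis, Cyp26b1 for breakdown, Rbp4 for transport of retinol, Crabp1 and Crabp2 for binding inside the cell, and the receptors Rarb and Rarg. They were chosen by symbol, as 9 of the 24946 rows that carried a gene symbol in a table of 84809 rows. Each member had a row of its own that named no other annotated gene symbol. The 3 gates were CD49f-high, CD49f-low and CD49f-neg mesenchymal cells, with 3 libraries each, numbered 1 to 3. All 9 libraries came from directly isolated, unpassaged cells of the strain Krt14 cre;Rosa26-mTmG, so no gate differed from another in genotype, treatment or age label. In this strain the Krt14 promoter, a promoter of basal keratinocytes, drives Cre, and the Rosa26-mTmG allele is a membrane fluorescence reporter that changes colour after Cre has acted. Nothing in the labels tells if the replicates are separate animals, so the p-values below measure only the spread between these samples, which may be technical.

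Retinol reaches tissues bound to the plasma carrier that Rbp4 encodes, is oxidised to retinal by retinol dehydrogenases, and is oxidised on to retinoic acid by the retinaldehyde dehydrogenases of the Aldh1a family. Inside the cell retinoic acid is held by the binding proteins of Crabp1 and Crabp2, is inactivated by the cytochromes of the Cyp26 family, and acts through retinoic acid receptors (Rara, Rarb, Rarg) that bind DNA as partners of the retinoid X receptors (Rxra, Rxrb, Rxrg). Skin is a classical target tissue of retinoids, and Rarg is known as a main receptor type of skin.

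Levels are FPKM, fragments per kilobase of transcript scaled to the mapped fragments of the library, as the authors deposited them. Means are given ± SD with n = 3 libraries per gate. Differences between gates are log2 fold changes on the log2(FPKM + 1) scale, where the change of a weakly expressed gene is understated, and were tested with limma over all 20523 rows that had at least 1 FPKM in at least 3 libraries. The threshold for a call was an adjusted p of 0.05. The 3 comparisons share libraries and so are not independent of each other.

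From the steps between low values, 1 FPKM of a transcript of 1 kilobase was estimated to stand for 23.7 to 27.3 fragments, so the precision of a member near or under 1 FPKM was limited. The estimate took the finest step as a single read of a pair. Itga6, which encodes CD49f, stood at 15.9 to 24.1 FPKM in CD49f-high, 4.38 to 6.09 FPKM in CD49f-low and 0.283 to 0.710 FPKM in CD49f-neg, in the order of the gate names. The fibroblast markers of a list of 6 (Col1a1, Col1a2, Col3a1, Pdgfra, Dcn, Lum) summed to 3920 to 5920 FPKM in CD49f-high, 5403 to 6615 FPKM in CD49f-low and 13516 to 16513 FPKM in CD49f-neg and were present in each gate. Of them 6 of 6 were called lower in CD49f-high than in CD49f-neg. The gates also differed in markers of other cell types. The pericyte and smooth muscle list of 7 summed to 759 to 1397 FPKM in CD49f-high, 81.5 to 158 FPKM in CD49f-low and 31.5 to 39.4 FPKM in CD49f-neg. The melanocyte list of 6 summed to 7.19 to 15.7 FPKM in CD49f-high, 408 to 502 FPKM in CD49f-low and 0.799 to 1.44 FPKM in CD49f-neg. The median difference over all rows tested was 0.07 for high against neg, 0.21 for low against neg and -0.15 for high against low, and lay within 0.04 of 0 after median-of-ratios scaling or quantile normalization.

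The promoters of 7 of the 9 members were matched by symbol in RefSeq (build GRCm38.p6), as 10 promoters of 250 bases before and 50 bases after a start. They were searched on both strands for the hexamer AGGTCA, its variant AGTTCA, the variant GGGTCA and the variant GGTTCA, which are forms of the element that retinoic acid receptors bind, and for direct repeats of 2 such hexamers with a spacer of 1, 2 or 5 bases. Hexamers that form a repeat were also counted as hexamers. Of the 10 promoters, the Rarb promoter alone held a direct repeat, with a spacer of 5 bases, and 32 of all 32851 promoters (0.0974%) held such a repeat. Repeats with spacers of 1 and 2 were in 0.222% and 0.268% of all promoters, and at least 1 hexamer was in 43.7%. The Rarb promoter is shown because it carries the repeat, those of Crabp1 and Cyp26b1 because these genes had the largest called differences among the members on the log2(FPKM + 1) scale. In the first, capitals mark the hexamer GGGTCA, then the repeat made of GGTTCA and, after its spacer, AGTTCA. In the other 2 they mark GGGCGG on either strand (CCGCCC where it lies on the other strand), a box bound by Sp family factors that was in 35.7% of all promoters, and TATAAA, in 13.6%.
Rarb, chr14:16575427-16575726, minus strand: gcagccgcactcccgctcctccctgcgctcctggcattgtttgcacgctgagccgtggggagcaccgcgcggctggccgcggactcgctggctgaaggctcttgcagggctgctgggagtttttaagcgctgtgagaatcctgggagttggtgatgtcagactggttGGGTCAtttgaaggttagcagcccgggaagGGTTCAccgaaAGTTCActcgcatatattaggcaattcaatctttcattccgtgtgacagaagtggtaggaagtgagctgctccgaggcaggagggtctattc
Crabp1, chr9:54764498-54764797, plus strand: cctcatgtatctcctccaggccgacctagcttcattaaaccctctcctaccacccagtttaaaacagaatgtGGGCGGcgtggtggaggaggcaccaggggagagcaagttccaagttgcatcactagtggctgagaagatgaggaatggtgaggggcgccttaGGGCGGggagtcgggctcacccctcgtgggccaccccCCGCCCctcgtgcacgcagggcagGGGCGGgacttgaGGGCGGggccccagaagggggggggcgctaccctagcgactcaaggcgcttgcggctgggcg
Cyp26b1, chr6:84593761-84594060, minus strand: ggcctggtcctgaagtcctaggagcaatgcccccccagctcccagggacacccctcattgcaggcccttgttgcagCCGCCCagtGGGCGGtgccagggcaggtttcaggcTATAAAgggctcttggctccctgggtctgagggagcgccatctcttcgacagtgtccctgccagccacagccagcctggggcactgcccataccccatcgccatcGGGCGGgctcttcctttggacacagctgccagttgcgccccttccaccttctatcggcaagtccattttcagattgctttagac
The repeat of Rarb began at position -53, counted with the start base as 0. The Crabp1 promoter held 5 GGGCGG boxes and the Cyp26b1 promoter 3 of them and 1 TATAAA, and neither held a hexamer in this window. A match of letters is a description of the sequence and not a site of binding.

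**Figure D1:**
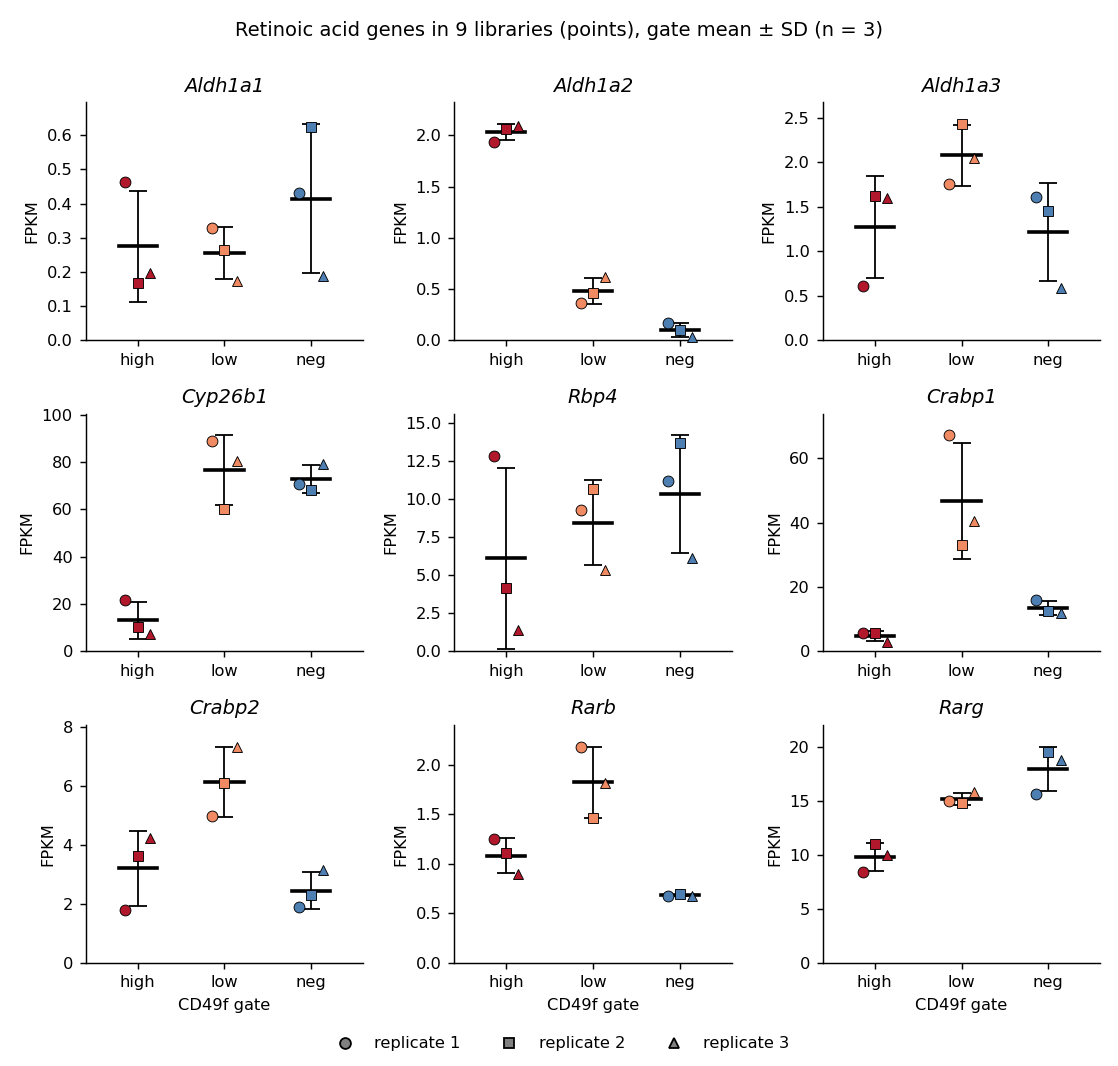
FPKM of each of the 9 members in the 9 libraries, grouped by gate from CD49f-high to CD49f-neg, with a panel per gene and a point per library. Cyp26b1 lies at 7.19 to 21.8 FPKM in CD49f-high and at 60.2 to 89.0 FPKM in CD49f-low, and Crabp1 peaks in CD49f-low at 32.9 to 67.1 FPKM.

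The synthesis enzymes were weakly expressed, and they did not move together. Aldh1a2 was the only one of the 3 with a called difference, highest in CD49f-high. Aldh1a2 (chromosome 9, 71215789 to 71296243, plus strand), the retinaldehyde dehydrogenase known from mesodermal tissue in the embryo, had 1.94, 2.06 and 2.09 FPKM in CD49f-high, 0.359, 0.461 and 0.614 FPKM in CD49f-low, and 0.167, 0.101 and 0.0324 FPKM in CD49f-neg. No library of any gate overlapped those of another gate. In CD49f-neg these values stand for an estimated 4.197, 2.65 and 0.884 fragments per kilobase of transcript, so that level rested on few fragments per kilobase. Aldh1a2 averaged 2.03 ± 0.0804 FPKM in CD49f-high, 0.478 ± 0.129 FPKM in CD49f-low and 0.1002 ± 0.0672 FPKM in CD49f-neg. The difference was 1.46 for CD49f-high against CD49f-neg (SE 0.12, limma adjusted p = 2.79e-05) and 1.04 for CD49f-high against CD49f-low (limma adjusted p = 0.000364). With a pseudocount of 0.1 these became 3.47 and 1.90. Since the gene passed the filter through the CD49f-high libraries alone, it had to be higher there, and these calls are no independent sign of it. The difference of 0.42 for CD49f-low against CD49f-neg passed the threshold (limma adjusted p = 0.0406) and lost it without the filter (0.0618), with median-of-ratios scaling (0.0899) or quantile normalization (0.614), and without any of the 6 libraries of these gates (0.0523 to 0.158). In these bulk samples fewer cells of a type and less RNA per cell cannot be told apart. The pericyte and smooth muscle list moved the same way, with 7 of 7 markers called higher in CD49f-high relative to CD49f-neg, and its part in the Aldh1a2 result was not tested.

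Aldh1a3 (chromosome 7, 66390890 to 66427517, minus strand), another enzyme that makes retinoic acid, had 0.603, 1.61 and 1.59 FPKM in CD49f-high, 1.75, 2.43 and 2.05 FPKM in CD49f-low, and 1.61, 1.45 and 0.586 FPKM in CD49f-neg. Every CD49f-low library was above every library of the other gates, but the difference did not pass the test. It was 0.50 for CD49f-low against CD49f-neg (95% interval -0.04 to 1.04, limma adjusted p = 0.179), -0.47 for CD49f-high against CD49f-low (-1.01 to 0.07, adjusted p = 0.222) and 0.03 for CD49f-high against CD49f-neg (-0.51 to 0.58, adjusted p = 0.945). Aldh1a1 (chromosome 19, 20601961 to 20643462, plus strand), the third enzyme of the family, reached 1 FPKM in no library and was not tested. It averaged 0.275 ± 0.163 FPKM in CD49f-high, 0.255 ± 0.0769 FPKM in CD49f-low and 0.414 ± 0.219 FPKM in CD49f-neg, and the ranges of the gates overlapped. Aldh1a1 and Aldh1a2 each overlap a predicted gene on the opposite strand, and with strand not stated their low levels are uncertain.

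Added together, the 3 enzymes came to 3.01 to 3.88 FPKM in CD49f-high, 2.44 to 3.15 FPKM in CD49f-low and 0.806 to 2.20 FPKM in CD49f-neg. The make-up of this sum differed between gates. Aldh1a2 was 53.6% to 64.5% of it in CD49f-high, 14.6% to 21.7% in CD49f-low and 4.02% to 7.57% in CD49f-neg. Aldh1a3 was 20.1% to 42.0% of the sum in CD49f-high, 71.8% to 77.0% in CD49f-low and 66.6% to 72.9% in CD49f-neg. Thus Aldh1a2 was the most abundant of the 3 in each CD49f-high library, and Aldh1a3 in each library of the other gates. A share within a library does not change when the whole library is scaled by 1 factor, but it can change under quantile normalization. With 3 libraries against 3, an exact two-sided permutation test of such a share cannot give a p below 0.1, so none was run.

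Cyp26b1, the retinoic acid hydroxylase of the group (chromosome 6, 84571414 to 84593908, minus strand), was the most abundant member by mean FPKM in each gate, and its level was much lower in CD49f-high than in the other gates. In CD49f-high its rank rested on replicate 1. Rarg was above it in replicate 2 (11.0 against 10.3 FPKM) and in replicate 3 (9.99 against 7.19 FPKM). Cyp26b1 had 21.8, 10.3 and 7.19 FPKM in CD49f-high, 89.0, 60.2 and 80.4 FPKM in CD49f-low, and 70.8, 68.2 and 79.3 FPKM in CD49f-neg. The CD49f-high libraries lay below all others with a wide gap, while the CD49f-low and CD49f-neg libraries overlapped. Cyp26b1 averaged 13.1 ± 7.71 FPKM in CD49f-high, 76.5 ± 14.8 FPKM in CD49f-low and 72.8 ± 5.82 FPKM in CD49f-neg. It fell by 2.52 in CD49f-high against CD49f-neg (SE 0.32, limma adjusted p = 0.000421) and by 2.58 in CD49f-high against CD49f-low (limma adjusted p = 0.000579). CD49f-low against CD49f-neg gave 0.06, with a 95% interval of -0.66 to 0.77 (limma adjusted p = 0.917), and the sign turned after median-of-ratios scaling (-0.23) and quantile normalization (-0.07). The papillary fibroblast list of 5 (Dpp4, Lrig1, Prdm1, Ntn1, Axin2) had a lower sum in CD49f-high, at 34.2 to 44.7 FPKM, against 88.0 to 99.8 FPKM in CD49f-low and 107.6 to 150.9 FPKM in CD49f-neg. Of its markers 5 of 5 were called lower in CD49f-high than in CD49f-low. Against CD49f-neg 3 were called lower in CD49f-high and 1 higher, Prdm1, at 6.35 FPKM in CD49f-high and 2.28 FPKM in CD49f-neg. Ntn1 made up most of the sum, with 21.96 FPKM in CD49f-high, 50.6 FPKM in CD49f-low and 95.3 FPKM in CD49f-neg, and the list's part in the Cyp26b1 result was not tested.

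As a ratio of levels, Cyp26b1 over the sum of the 3 Aldh1a enzymes stood at 7.26, 2.67 and 1.85 in CD49f-high, 36.5, 19.1 and 28.4 in CD49f-low, and 32.2, 31.4 and 98.4 in CD49f-neg. Every CD49f-high library was below every other library, and the highest ratio, in CD49f-neg replicate 3, came with the lowest Aldh1a sum of 0.806 FPKM. The related hydroxylases Cyp26a1 and Cyp26c1 stayed at or below 0.136 and 0.0616 FPKM in every library and were not tested.

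**Figure D2:**
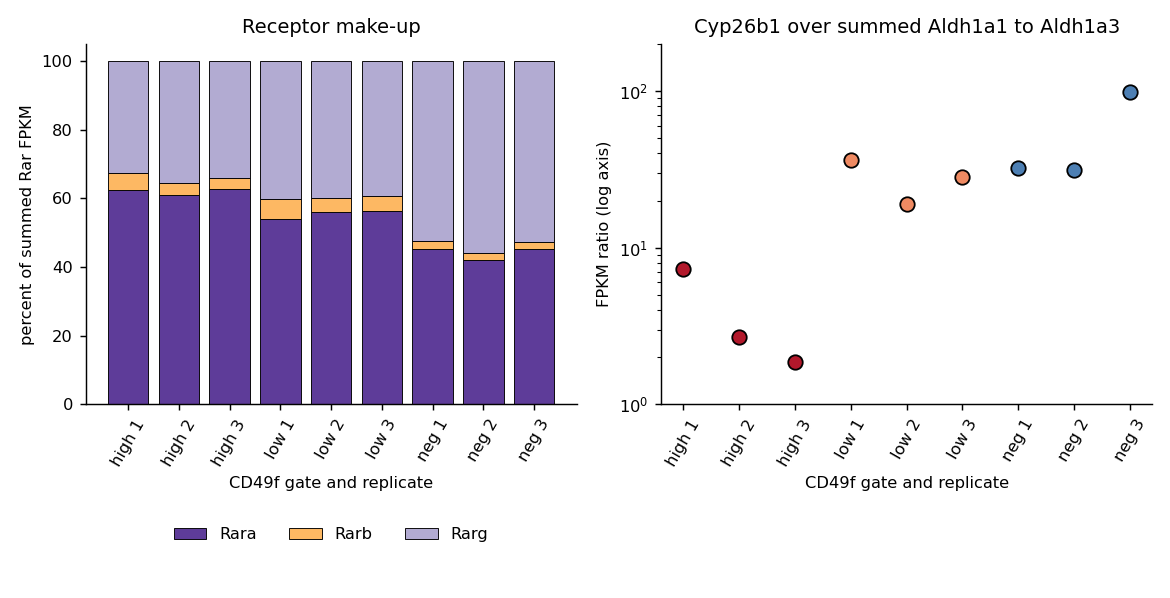
Left, share of Rara, Rarb and Rarg in their summed FPKM, in percent, as a stacked bar per library from CD49f-high to CD49f-neg. Right, ratio of Cyp26b1 FPKM to summed Aldh1a1, Aldh1a2 and Aldh1a3 FPKM on a log axis, a point per library, lowest in the CD49f-high libraries (1.85 to 7.26) against CD49f-low (19.1 to 36.5) and CD49f-neg (31.4 to 98.4).

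Rbp4 (chromosome 19, 38116620 to 38125321, minus strand) had 12.8, 4.14 and 1.43 FPKM in CD49f-high, 9.29, 10.7 and 5.32 FPKM in CD49f-low, and 11.2, 13.7 and 6.11 FPKM in CD49f-neg. The gates overlapped, and replicate 3 was the lowest in each of them. No comparison passed the test. CD49f-low against CD49f-neg gave -0.25 (limma adjusted p = 0.777) and CD49f-high against CD49f-low -0.71 (limma adjusted p = 0.412). CD49f-high against CD49f-neg gave -0.96 (95% interval -2.20 to 0.28, limma adjusted p = 0.261), and without CD49f-high replicate 1 it gave -1.62 (limma adjusted p = 0.0272). Without CD49f-high replicate 3 it gave -0.36 (limma adjusted p = 0.647), so the value rested on which CD49f-high libraries were kept. CD49f-high replicate 1 also stood apart in the adipocyte list of 4 (Adipoq, Plin1, Fabp4, Pparg). That list summed to 231.8, 21.5 and 16.7 FPKM in CD49f-high, 27.8, 24.9 and 22.1 FPKM in CD49f-low, and 6.93, 3.81 and 3.74 FPKM in CD49f-neg. Adipoq, the gene of the fat cell hormone adiponectin, had 131.9 FPKM in CD49f-high replicate 1 and 2.30 and 1.16 FPKM in the other CD49f-high libraries. Rbp4 is known to be made by adipocytes as well as by liver, and the part of adipocyte RNA in its level was not tested. The row for Fabp4 also covers Pmp2 and Fabp9 and is uncertain.

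**Figure D3:**
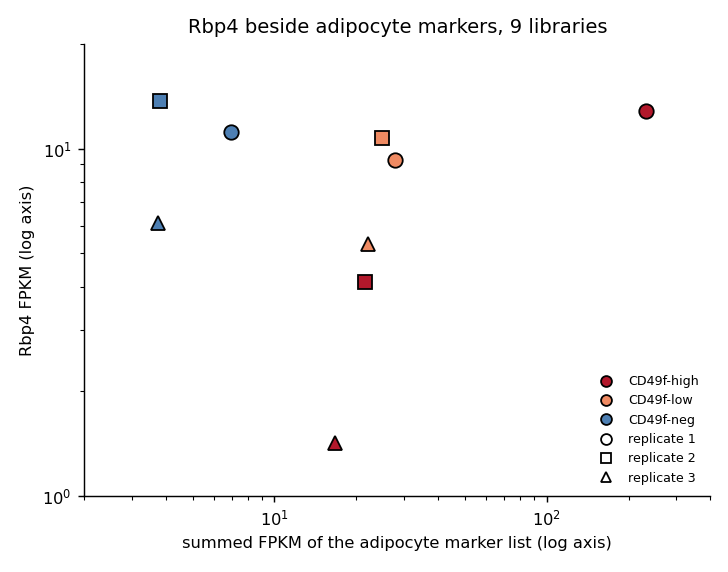
Rbp4 FPKM against summed FPKM of the 4 adipocyte markers (log axis), a point per library, with CD49f-high, CD49f-low and CD49f-neg in different colours. CD49f-high replicate 1 has the highest marker sum, 231.8 FPKM, and 12.8 FPKM of Rbp4, while the other CD49f-high libraries have 1.43 and 4.14 FPKM of Rbp4. CD49f-neg has the lowest marker sums, 3.74 to 6.93 FPKM, with Rbp4 at 6.11 to 13.7 FPKM.

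Crabp1, a cytoplasmic binding protein that is also known as a dermal fibroblast marker in mouse skin (chromosome 9, 54764748 to 54773110, plus strand), differed in all 3 comparisons, with its peak in CD49f-low. It had 5.62, 5.78 and 2.92 FPKM in CD49f-high, 67.1, 32.9 and 40.4 FPKM in CD49f-low, and 16.1, 12.6 and 11.9 FPKM in CD49f-neg. No library overlapped those of another gate. Crabp1 averaged 4.77 ± 1.61 FPKM in CD49f-high, 46.8 ± 18.0 FPKM in CD49f-low and 13.5 ± 2.26 FPKM in CD49f-neg. It fell by 1.36 in CD49f-high against CD49f-neg (SE 0.28, limma adjusted p = 0.00700), rose by 1.66 in CD49f-low against CD49f-neg (limma adjusted p = 0.00428) and fell by 3.03 in CD49f-high against CD49f-low (limma adjusted p = 0.000128). These calls held in all 17 alternatives. The dermal papilla list of 10, of the signalling mesenchyme at the base of the hair follicle, also peaked in CD49f-low, with sums of 29.6 to 40.5 FPKM in CD49f-high, 113.7 to 148.0 FPKM in CD49f-low and 86.2 to 103.6 FPKM in CD49f-neg. Of its 9 tested markers 6 were called higher in CD49f-low than in CD49f-neg and 8 lower in CD49f-high than in CD49f-low. In CD49f-high against CD49f-neg they were split, with 4 called higher (Corin, Sox2, Alpl, Notum) and 3 lower (Wif1, Rspo3, Hhip), and the lower sum came with Wif1, at 9.57 FPKM in CD49f-high and 66.3 FPKM in CD49f-neg. The melanocyte list, at 408 to 502 FPKM in CD49f-low and 7.19 to 15.7 FPKM in CD49f-high, peaked in CD49f-low too. So did the skeletal muscle list, at 11.3 to 19.1 FPKM in CD49f-low and 0.846 to 2.81 FPKM in CD49f-high. The part of these lists in the Crabp1 result was not tested.

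Crabp2, the binding protein known to hand retinoic acid on to the receptors in the nucleus (chromosome 3, 87948666 to 87953376, plus strand), had 1.78, 3.61 and 4.23 FPKM in CD49f-high, 4.97, 6.08 and 7.32 FPKM in CD49f-low, and 1.90, 2.29 and 3.14 FPKM in CD49f-neg. The CD49f-low libraries were above all others, and the CD49f-high and CD49f-neg libraries overlapped. It rose by 1.05 in CD49f-low against CD49f-neg (SE 0.24, limma adjusted p = 0.0197). This call was lost without the filter (0.0569), with median-of-ratios scaling (0.0781) or quantile normalization (0.0716), and without CD49f-low replicate 2 or 3 or CD49f-neg replicate 1 or 2 (0.0539 to 0.0834). The difference of -0.80 for CD49f-high against CD49f-low missed the threshold (limma adjusted p = 0.0526). It was past it when the replicate number was a block (0.00377) and without CD49f-high replicate 3 (0.0427). CD49f-high against CD49f-neg gave 0.25 (95% interval -0.29 to 0.80, limma adjusted p = 0.520). The level of Crabp1 over that of Crabp2 was 0.690 to 3.16 in CD49f-high, 5.41 to 13.5 in CD49f-low and 3.79 to 8.47 in CD49f-neg, so Crabp2 exceeded Crabp1 in CD49f-high replicate 3 alone.

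Of the receptors, Rarg was lower in CD49f-high and Rarb was higher in CD49f-low. Rarg (chromosome 15, 102234938 to 102257517, minus strand) had 8.38, 11.0 and 9.99 FPKM in CD49f-high, 15.0, 14.8 and 15.8 FPKM in CD49f-low, and 15.6, 19.5 and 18.7 FPKM in CD49f-neg. The CD49f-high libraries lay below all others, and CD49f-low and CD49f-neg overlapped at their edge. It fell by 0.82 in CD49f-high against CD49f-neg (SE 0.12, limma adjusted p = 0.00126) and by 0.59 in CD49f-high against CD49f-low (limma adjusted p = 0.0102, but 0.0565 after median-of-ratios scaling and 0.0504 without CD49f-low replicate 3). CD49f-low against CD49f-neg gave -0.22 (limma adjusted p = 0.240), which passed after median-of-ratios scaling (0.0380).

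Rarb, a receptor whose own gene is a classical target of retinoic acid through the repeat printed above (chromosome 14, 16430842 to 16575472, minus strand), had 1.25, 1.11 and 0.893 FPKM in CD49f-high, 2.18, 1.46 and 1.82 FPKM in CD49f-low, and 0.671, 0.690 and 0.680 FPKM in CD49f-neg. No library overlapped those of another gate, and the levels ran from CD49f-low, the highest, through CD49f-high to CD49f-neg. It rose by 0.74 in CD49f-low against CD49f-neg (SE 0.13, limma adjusted p = 0.00516), a call kept in all 16 alternatives that tested it, and by 1.28 with a pseudocount of 0.1. CD49f-high against CD49f-low gave -0.43, just past the threshold (limma adjusted p = 0.049996) and lost in 13 of 16 alternatives (up to 0.191). CD49f-high against CD49f-neg gave 0.31 and did not pass (limma adjusted p = 0.130). Every CD49f-neg library and CD49f-high replicate 3 lay under 1 FPKM, so the gene met the filter only with CD49f-low libraries. Its calls are thus no independent sign of a higher level there, though the call against CD49f-neg was kept without the filter. The row overlaps the end of Top2b on the opposite strand, and the labels do not state strand, so reads of the 2 genes there could not be told apart. Top2b had 15.9 to 21.5 FPKM in CD49f-high, 14.9 to 17.9 FPKM in CD49f-low and 15.3 to 16.3 FPKM in CD49f-neg.

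Within the sum of the 3 retinoic acid receptors the shares shifted between gates. Rarg was 32.6% to 35.6% of the sum in CD49f-high, 39.2% to 40.1% in CD49f-low and 52.5% to 56.0% in CD49f-neg, with no overlap. Rara, the receptor of broad expression, was 60.9% to 62.9% in CD49f-high, 54.1% to 56.3% in CD49f-low and 42.0% to 45.3% in CD49f-neg. Rarb was the smallest part, at 3.05% to 4.86% in CD49f-high, 3.96% to 5.84% in CD49f-low and 1.91% to 2.26% in CD49f-neg. Rara was therefore the most abundant receptor of the 3 in CD49f-high and CD49f-low, and Rarg in CD49f-neg.

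The members were chosen with earlier results of these data known, so the counts below describe them and are no independent test. Across the members tested, 1 of 8 was called higher and 3 lower in CD49f-high than in CD49f-neg, where 13.9% of all rows tested were called higher and 8.27% lower. The higher one was Aldh1a2, which passed the filter through CD49f-high alone and so had to be higher there. The lower ones were Cyp26b1, Crabp1 and Rarg. In CD49f-low against CD49f-neg 4 of 8 were called higher and 0 lower (Crabp1, Crabp2, Rarb and Aldh1a2), against 12.8% higher and 2.62% lower of all rows. Rarb among them met the filter only with CD49f-low libraries. In limma's test 0 members were lower in this comparison at an unadjusted p under 0.05 as well, and after median-of-ratios scaling Rarg was called lower. In CD49f-high against CD49f-low 1 of 8 was called higher and 4 lower, against 5.93% and 10.5% of all rows, the lower ones being Cyp26b1, Crabp1, Rarb and Rarg. The higher one was again Aldh1a2, with the same limit. The median difference of the members tested was -0.39 for CD49f-high against CD49f-neg, 0.46 for CD49f-low against CD49f-neg and -0.65 for CD49f-high against CD49f-low, with 0.07, 0.21 and -0.15 over all rows. Without regard to the test, 2 of the 8 were higher with no overlap between CD49f-high and CD49f-neg and 3 lower, against 22.5% and 13.9% of all rows. Between CD49f-low and CD49f-neg 5 were higher and 0 lower with no overlap, against 34.8% and 5.77%, and between CD49f-high and CD49f-low 1 was higher and 6 lower, against 10.3% and 27.0%. Aldh1a2 is counted among the higher members in both comparisons of CD49f-high here too. The replicate block moved the calls over all rows to 5806, against 3160 without it, for CD49f-low against CD49f-neg, and to 5309, against 3367, for CD49f-high against CD49f-low. Scaling moved the split of calls too: CD49f-low against CD49f-neg had 2623 higher and 537 lower as deposited, 1117 and 1093 after median-of-ratios scaling and 1040 and 1004 after quantile normalization. For CD49f-high against CD49f-low the split was 1216 higher and 2151 lower as deposited, and 1614 and 1331 after median-of-ratios scaling. For CD49f-high against CD49f-neg it was 2844 and 1697 as deposited, and 2186 and 2315 after quantile normalization.

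**Figure D4:**
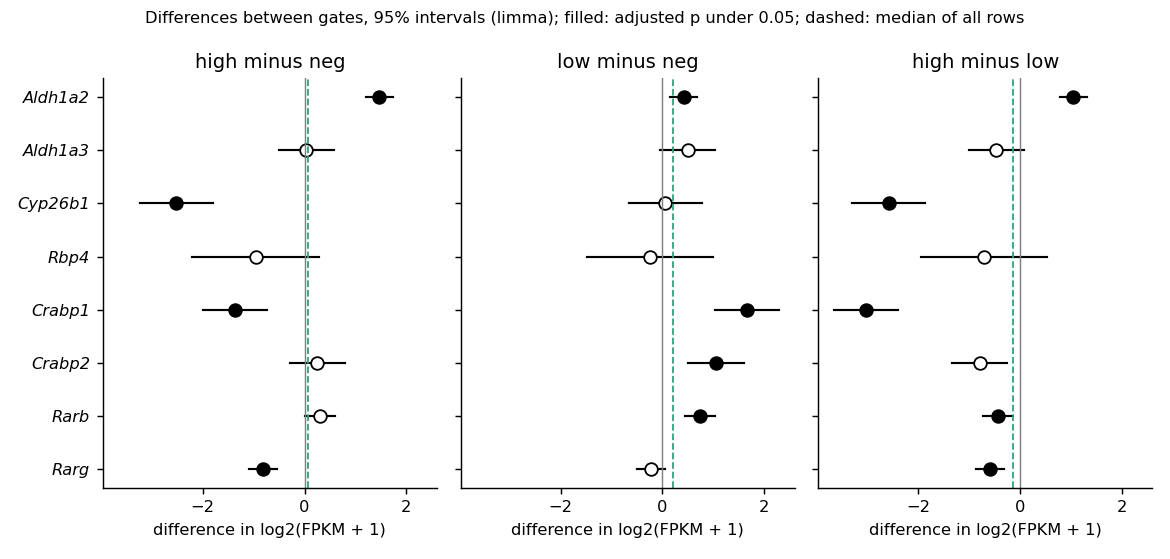
Log2 fold changes on the log2(FPKM + 1) scale of the 8 tested members with 95% intervals, for CD49f-high against CD49f-neg, CD49f-low against CD49f-neg and CD49f-high against CD49f-low, filled where the adjusted p is under 0.05. Cyp26b1 and Crabp1 lie left of 0 in both comparisons of CD49f-high, at -2.52 and -1.36 against CD49f-neg.

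Of 50 other genes of the pathway 49 were matched to rows and 32 were tested. This list too was chosen with earlier results of these data known, so its counts are a description. In CD49f-high against CD49f-neg 9 were called higher and 5 lower, where 13.9% and 8.27% of all rows were, and the 14 calls became 8 to 16 over the alternatives. In CD49f-low against CD49f-neg 5 were called higher and 2 lower, where 12.8% and 2.62% of all rows were, and the 7 calls became 1 to 9, with 1 left without CD49f-low replicate 3. In CD49f-high against CD49f-low 7 were called higher and 5 lower, where 5.93% and 10.5% of all rows were, and the 12 calls became 6 to 16. Their median difference was 0.23 for CD49f-high against CD49f-neg, 0.20 for CD49f-low against CD49f-neg and 0.03 for CD49f-high against CD49f-low. Among genes of retinol handling, Rdh5, a retinol dehydrogenase, shares its row with Bloc1s1, and in that row CD49f-high exceeded CD49f-neg by 1.13 (limma adjusted p = 0.000626). Adh7, an alcohol dehydrogenase that oxidises retinol, gave -0.91 for CD49f-high against CD49f-neg (limma adjusted p = 0.00350). Dhrs3, which turns retinal back to retinol, and Rdh11, another retinal reductase, had called differences that median-of-ratios scaling ended.

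Of the retinoid X receptors, Rxrg alone was called. Rxrg, a member of restricted expression, had 4.17 ± 1.88 FPKM in CD49f-high, 2.31 ± 1.01 FPKM in CD49f-low and 0.514 ± 0.139 FPKM in CD49f-neg, with a difference of 1.70 for CD49f-high against CD49f-neg (limma adjusted p = 0.00376). CD49f-low against CD49f-neg gave 1.08 (limma adjusted p = 0.0462, but 0.104 after median-of-ratios scaling). Rxra and Rxrb passed the test in no comparison. Rara was higher in CD49f-low than in CD49f-neg by 0.50 (limma adjusted p = 0.0148), which was lost after median-of-ratios scaling (0.299). The orphan receptors Nr2f1 and Nr2f2, which can bind the same DNA elements, were higher in CD49f-high, with Nr2f2 at 17.5 ± 3.44 FPKM in CD49f-high, 2.45 ± 0.929 FPKM in CD49f-low and 1.26 ± 0.181 FPKM in CD49f-neg. Its difference was 3.02 for CD49f-high against CD49f-neg (limma adjusted p = 9.27e-06). Nr2f1 had 7.40 ± 1.71 FPKM in CD49f-high, 0.287 ± 0.164 FPKM in CD49f-low and 0.0907 ± 0.0312 FPKM in CD49f-neg, and like Aldh1a2 it passed the filter through CD49f-high alone. Ncoa1, a coactivator of nuclear receptors, fell by 0.66 in CD49f-high against CD49f-neg (limma adjusted p = 0.00642).

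Of the 9 genes listed as responsive to retinoic acid, 6 were tested and they went both ways. In CD49f-high against CD49f-neg 2 were called higher and 3 lower, where 13.9% and 8.27% of all rows were. Tgm2, a tissue transglutaminase, had 15.5 ± 5.96 FPKM in CD49f-high, 2.05 ± 0.264 FPKM in CD49f-low and 4.003 ± 0.430 FPKM in CD49f-neg, a difference of 1.67 for CD49f-high against CD49f-neg (limma adjusted p = 0.000456). Zfp703, a transcriptional repressor, rose by 1.26 in CD49f-high against CD49f-neg (limma adjusted p = 0.00423). Meis1, a homeobox cofactor, had 1.55 ± 0.253 FPKM in CD49f-high, 6.04 ± 0.684 FPKM in CD49f-low and 6.45 ± 0.566 FPKM in CD49f-neg, and fell by 1.55 in CD49f-high against CD49f-neg (limma adjusted p = 2.71e-05). Rarres1 fell by 1.119 in CD49f-high against CD49f-neg (limma adjusted p = 0.00663). Rarres2, which encodes chemerin, averaged 13.6 ± 1.38 FPKM in CD49f-high, 9.67 ± 1.34 FPKM in CD49f-low and 15.0 ± 0.920 FPKM in CD49f-neg, and fell by 0.59 in CD49f-low against CD49f-neg (limma adjusted p = 0.0126). These genes are listed for a known response in other systems, and the lists hold no measure of retinoic acid itself.

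**Figure D5:**
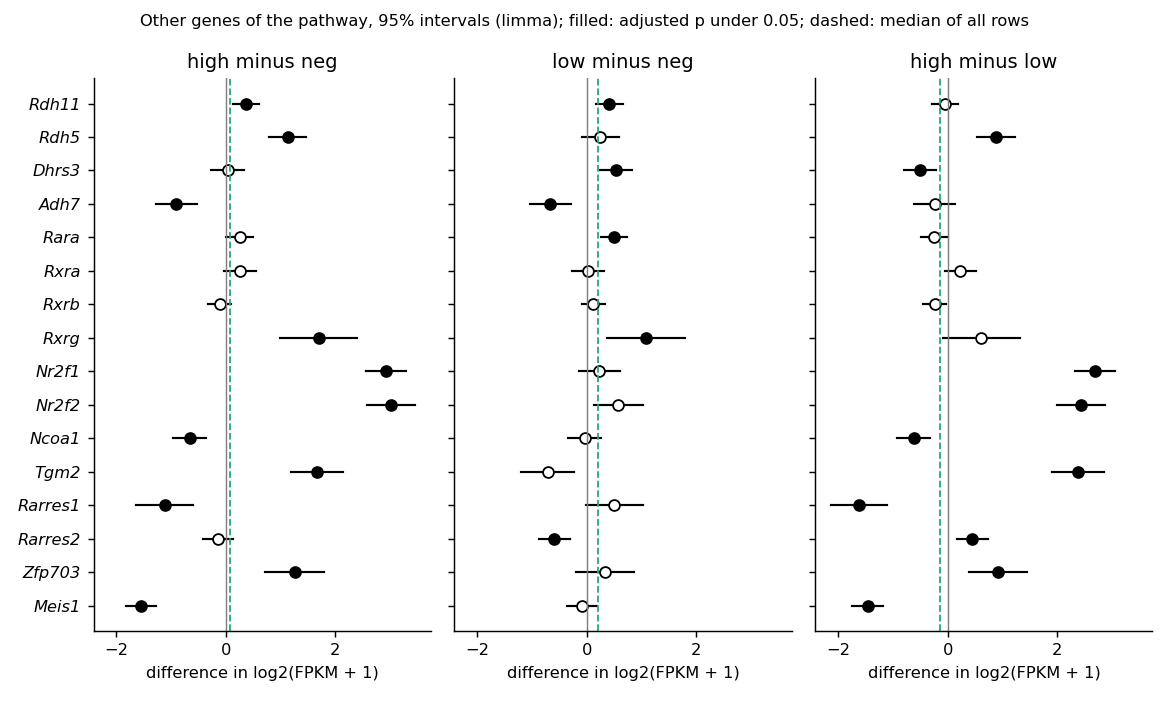
Log2 fold changes on the log2(FPKM + 1) scale of the other named pathway genes, for CD49f-high against CD49f-neg, CD49f-low against CD49f-neg and CD49f-high against CD49f-low. Nr2f2 lies at 3.02 and Meis1 at -1.55 for CD49f-high against CD49f-neg.

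For each member tested, the 3 rows with the most similar pattern were sought by Pearson r of log2(FPKM + 1) over the 9 libraries, among 3772 rows with 1 symbol and at least 5 FPKM in the highest gate. These r describe 9 libraries that share gates and replicate numbers. Aldh1a2 was most like Sema5b (r = 0.994), Foxs1 (0.992) and Pdgfa (0.990). Cyp26b1 was most like Col26a1 (0.992), Ncoa1 (0.985) and Fgfr4 (0.973), Crabp1 like Fgfr1 (0.984), Mpped2 (0.969) and Sema3a (0.967), and Crabp2 like Mboat2 (0.977), Dkk2 (0.964) and Lama2 (0.961). Rarg was most like Tpst1 (0.992), Smarca2 (0.990) and Gdpd5 (0.990), and Rarb like Kpna3 (0.964), Myog (0.964) and Ccdc97 (0.958). For Aldh1a3 the nearest rows were Ubqln2 (0.956), Arpp19 (0.904) and Dis3 (0.892), and for Rbp4 Ctsb (0.977), Rps19-ps1 (0.927) and Rps26-ps1 (0.926). Of the 3 neighbours of Rarb, Myog is a skeletal muscle factor, and the skeletal muscle list summed to 0.846 to 2.81 FPKM in CD49f-high, 11.3 to 19.1 FPKM in CD49f-low and 0.0992 to 0.236 FPKM in CD49f-neg, where 2 of its 5 rows were at 0 in every library. Of 4 tested markers 4 were called higher in CD49f-low relative to CD49f-neg. The melanocyte and dermal papilla lists also peaked in CD49f-low, at 408 to 502 FPKM and 113.7 to 148.0 FPKM. The part of these lists in the Rarb result was not tested. Rps19-ps1 and Rps26-ps1 are pseudogenes of ribosomal protein genes and may share reads with them.

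Of the remaining marker lists, those of Schwann cells and keratinocytes had sums in the order of the gates, highest in CD49f-high. The Schwann cell list summed to 27.4 to 149.3 FPKM in CD49f-high, 20.2 to 25.5 FPKM in CD49f-low and 0.393 to 0.833 FPKM in CD49f-neg, and 6 of 6 of its markers were called higher in CD49f-high relative to CD49f-neg. The keratinocyte list, of the cells the Krt14 promoter marks, summed to 16.4 to 40.3 FPKM in CD49f-high, 7.22 to 12.9 FPKM in CD49f-low and 2.07 to 3.00 FPKM in CD49f-neg, with 5 of 5 tested rows called higher in CD49f-high relative to CD49f-neg. Krt14 and Krt15 share 1 of these rows, and that row and the row of Krt5 also cover other keratins. The endothelial list summed to 7.74 to 12.6 FPKM in CD49f-high, 5.83 to 6.32 FPKM in CD49f-low and 1.71 to 3.50 FPKM in CD49f-neg, and of its 3 tested markers Cdh5 was called higher and Kdr lower in CD49f-high than in CD49f-low. The immune list summed to 1.87 to 3.01 FPKM in CD49f-high, 2.61 to 3.55 FPKM in CD49f-low and 1.49 to 2.27 FPKM in CD49f-neg, with overlap between gates and no call for its 1 tested marker. The reticular and hypodermal fibroblast list summed to 208 to 235 FPKM in CD49f-high, 125 to 146 FPKM in CD49f-low and 124 to 205 FPKM in CD49f-neg, with 1 of 5 called higher and 1 lower in CD49f-high against CD49f-neg. The part of these lists in the members' differences was not tested.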

How the data were processed

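RNA of sorted cells, lysed at once in Trizol, was made into libraries with a NEBNext Ultra kit, per the labels' protocols. The authors deposited 1 table of FPKM, with a column per library. FastQC, TopHat2, StringTie and the build GRCm38 are named in the submitters' processing notes, with no versions, and strand is not given in the sources used here. All 9 columns were matched to libraries by name, and 0 per-sample columns were left unused.

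The members, lists and tests were chosen with earlier results of these data known. FPKM were tested as log2(FPKM + 1) with limma 3.58.1, under R 4.3.3 (a mean per gate, empirical Bayes with trend, two-sided, 6 residual degrees of freedom, Benjamini-Hochberg over 20523 rows, threshold 0.05). The method was tried on simulated data with independent noise per library, for CD49f-high against CD49f-neg only. These simulated libraries shared no replicate effect, so the pairing of replicate numbers was not covered. Other steps used Python 3.11.15, pandas 2.3.3 and numpy 2.4.6, with figures from matplotlib 3.10.9. Depth was estimated from the spacing of low FPKM of single-exon genes.

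Named genes were the members, Itga6, the other pathway genes called in at least 1 comparison with at least 5 FPKM in their highest gate, the paralogs Rara, Rxra, Rxrb, Rxrg, Cyp26a1 and Cyp26c1, and 3 similar rows per member. The result of 1 gene that the rule names is left out of the text. Top2b was added for its overlap with Rarb.

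The replicate numbers were checked for pairing. In deviations from the gate means, same-number libraries had correlations of 0.252 to 0.520 and those of different numbers at -0.453 to 0.118, so the values pair them, while the labels give no source for the numbers. The test did not use the pairing. The alternatives tried were no filter, a filter of 5 FPKM, a pseudocount of 0.1, quantile normalization, median-of-ratios scaling, the replicate block, no trend, a fit on the 6 libraries compared, and each library left out.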

Additional observations from a re-analysis of the deposited data

How the results depend on the processing

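Of 24 member results, 14 kept their direction and their side of the threshold in every alternative that tested them, among them the calls of Cyp26b1 and Crabp1. Small differences turned sign. Aldh1a3 in CD49f-high against CD49f-neg went to -0.014 with median-of-ratios scaling, -0.077 with quantile normalization and -0.19 to 0.27 with a library left out. Cyp26b1 in CD49f-low against CD49f-neg went to -0.23, -0.067 and -0.061 to 0.22 under the same settings, and Rbp4 in that comparison to -0.55 to 0.0185 with a library left out. The cause was not tested.

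For CD49f-low against CD49f-neg the count of members called, 4, became 2 without the filter, 1 with the filter of 5 FPKM, 2 after quantile normalization and 2 to 3 with a library left out (2 without CD49f-low replicate 2 or 3 or CD49f-neg replicate 1 or 2). For CD49f-high against CD49f-low the count of 5 became 3 with the filter of 5 FPKM, 3 after median-of-ratios scaling and 3 to 5 with a library left out (3 without CD49f-high replicate 1 or 2 or CD49f-low replicate 3). For CD49f-high against CD49f-neg it was 3 to 4 with a library left out, and leaving out any CD49f-high library took Aldh1a2 out of the test, while Rbp4 was called without CD49f-high replicate 1.

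Over all rows, the filter of 5 FPKM tests fewer rows and gave 1911 calls for CD49f-high against CD49f-neg, 1358 for CD49f-low against CD49f-neg and 1323 for CD49f-high against CD49f-low. Quantile normalization gave 2044 for CD49f-low against CD49f-neg. The replicate block, which uses the pairing, gave 6408 for CD49f-high against CD49f-neg, 5806 for CD49f-low against CD49f-neg and 5309 for CD49f-high against CD49f-low. With a library left out, the count for CD49f-high against CD49f-neg ran from 3008 to 4455 and moved by over 1.5 times without CD49f-neg replicate 3. For CD49f-low against CD49f-neg it ran from 1342 to 3760 and moved so far without any CD49f-low library or CD49f-neg replicate 2 or 3. For CD49f-high against CD49f-low it ran from 1869 to 3593 and moved so far without CD49f-high replicate 3 or any CD49f-low library. Beside the members named in the text the block changed no other member call. The calls over the other pathway genes ranged over all alternatives from 8 to 16 for CD49f-high against CD49f-neg, 1 to 9 for CD49f-low against CD49f-neg and 6 to 16 for CD49f-high against CD49f-low. Depth limits Aldh1a1, Aldh1a2, Aldh1a3 and Rarb, which lie under 1 FPKM in some libraries.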
